A study of Caenorhabditis elegans with 4 samples.

Results

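Chromosome III carried 370 of the 2548 regions bound by ELT-1::GFP in Caenorhabditis elegans larvae, and these 370 regions are described here. They are every entry for chromosome III in the list that combines the ChIP samples, so position alone chose them. DNA bound by the tagged protein had been recovered by chromatin immunoprecipitation and sequenced (ChIP-seq). The ChIP samples, 2 in number, had 1 input sample each (total chromatin DNA of the same extract). All came from hermaphrodites at the L3 larval stage, grown at 20 °C and fixed with 2% formaldehyde. The strain was OP354, which is unc119(ed3) and carries the transgene wgIs354. This transgene holds elt-1 with the tags TY1, EGFP and FLAG beside unc119, and it was brought in by bombardment. Every sample had this genotype, and no untagged strain was analysed here. Per the labels the strain had an outcross count of 0. Whole animals were used, so a region can be bound in any tissue where the tagged protein is made. Whether the replicates came from separate cultures is not stated, so the spread between them may be technical.

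ELT-1 is a zinc finger transcription factor of the GATA family, whose members recognise short sites with a GATA core. In the worm embryo it specifies the epidermis, the cell layer that makes the cuticle and moults it at each larval stage. It is also known to act in the maintenance of epidermal cells during larval life. The autosomes of this worm have a gene-rich centre of low recombination between arms with more repeats and higher recombination.

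Of the lists, 1 was given for each ChIP sample and 1 was combined from both, with positions in WormBase WS220. Each region has a name ending in a number, and the lowest numbers are taken as the best ranks. The score that the authors set beside each region was the same for the whole combined list and cannot rank it. Replicate 1 had 4285 regions on III among 28238 in all, and replicate 2 had 3986 among 26327. The summed widths of these regions came to 11.6% of chromosome III in replicate 1 and 11.1% in replicate 2, against 0.942% for the combined list. An overlap with some region of a replicate can therefore arise from position alone. No read counts stand in these lists, so the depth behind each region is unknown and no region has an error of its own. Genes and sequence at the regions were not determined, because no annotation or genome of this build was used here.

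The best-ranked member on III lay at 3867420 to 3867688 and was number 17 of the combined list, with number 19 in replicate 1 and number 20 in replicate 2. The region at 9991291 to 9991592 followed as number 18, and it was 29 in replicate 1 and 12 in replicate 2. Number 19 lay at 6132105 to 6132410, and it was 23 in replicate 1 and 22 in replicate 2. These 3 stood close together in rank and far apart on the chromosome, at 28.1%, 72.5% and 44.5% of its length. Number 28, at 1818336 to 1818603, was the best in the left arm and stood at 38 in replicate 1 and 31 in replicate 2. Number 55, at 12612419 to 12612710, was the best in the right arm and stood at 67 in replicate 1 and 80 in replicate 2. The replicates thus placed the leading region of either arm within their best 100.

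Central regions made up most of the 15 best members, as they did of all members on III (275 of 370). Whether the 15 differ from the other members in this was not tested. Number 34 lay at 5937974 to 5938284, number 38 at 9858033 to 9858301 and number 40 at 7854519 to 7854723. Number 46 lay at 3797151 to 3797438, with number 89 in replicate 1 and 34 in replicate 2. Numbers 49 (8577542 to 8577836) and 64 (8573881 to 8574125) were separate regions within the same short stretch, and number 62 (8621025 to 8621260) lay to their right. The remaining members of the 15 best were number 57 at 10759024 to 10759291, number 79 in the left arm at 1923563 to 1923847 and number 82 at 4102105 to 4102296. Across the 15, the replicate midpoints lay from 2 to 42.5 bp apart and the widths ran from 192 to 311 bp. The least alike of the 15 was number 40, which was 33 in replicate 1 and 116 in replicate 2. All 15 had scores at the highest value of either replicate list, so the score sets no order among them.

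The ranks of the members on III were not detectably better or worse than those of the rest. The combined list was cut by number into 5 bins of near-equal size, and the first bin, the best 509, held 74 of the 370 (20.0%, 95% Wilson interval 16.2 to 24.4), against 435 of 2178 on the other chromosomes (20.0%, 18.3 to 21.7). The background over all regions was 20.0%. The odds ratio of III over the other chromosomes was 1.002 (interval 0.750 to 1.33; two-sided p = 1 by Fisher's exact test, Benjamini-Hochberg adjusted p = 1 over 5 planned tests). At the very top, III held 19 of the best 100 regions of the genome, while it held 14.5% of all regions. X held 23 of these 100, V 21, II 15, IV 13 and I 9, and this was not tested. Among the best 10% of the list the odds ratio of III over the other chromosomes was 1.08 (0.730 to 1.55; Fisher's exact p = 0.707). The median number was 1283 on III and 1272.5 on the other chromosomes.

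III was denser in combined regions than the other autosomes as a set and sparser than X. It carried 26.8 combined regions per Mb, the other autosomes 23.0 and X 33.5. The ratio to the other autosomes was 1.16 (95% interval 1.04 to 1.31; exact binomial test, p = 0.00909, adjusted p = 0.0227 over 5 planned tests). The ratio to X was 0.801 (0.701 to 0.913; exact binomial p = 0.000818, adjusted p = 0.00409). Taken singly, in a comparison added after the data were seen, III exceeded IV 1.29-fold (1.11 to 1.49; exact binomial, adjusted p = 0.00136 over 5 chromosomes) and V 1.32-fold (1.15 to 1.52; exact binomial, adjusted p = 0.000515). The ratio of III to I was 1.09 (0.941 to 1.26) and that of III to II was 0.967 (0.839 to 1.11). Neither passed the test (exact binomial, adjusted p = 0.318 and 0.644). No region is an independent replicate, and these p-values say nothing about worm cultures in general.

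An excess of like size over the other autosomes was present among all regions that the replicates called, most of them low-ranked. The whole list of replicate 1 held 310.9 regions per Mb on III, against 270.4 on the other autosomes. In replicate 2 the values were 289.2 on III and 253.7 on the other autosomes. The ratios of III to the other autosomes were 1.15 and 1.14, close to the 1.16 of the combined list. X held 301.6 regions per Mb in the whole list of replicate 1 and 275.2 in that of replicate 2. III was thus not sparser than X in the whole lists, a comparison that was not tested. Set against the other autosomes, III was not detectably more frequent among the best 2548 nuclear regions of a replicate than among the rest of that list (for replicate 1, odds ratio 1.02, 0.903 to 1.15, Fisher's exact p = 0.762; for replicate 2, odds ratio 1.02, 0.900 to 1.14, Fisher's exact p = 0.785). In the better 1274 regions of the combined list the ratio was 1.17 (0.989 to 1.37) and did not pass the test (exact binomial p = 0.0640). Without the last of 10 equal parts of each autosome, which was left out after its excess on III had been seen, the ratio was 1.11 (0.984 to 1.25; exact binomial p = 0.0841).

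**Figure D1:**
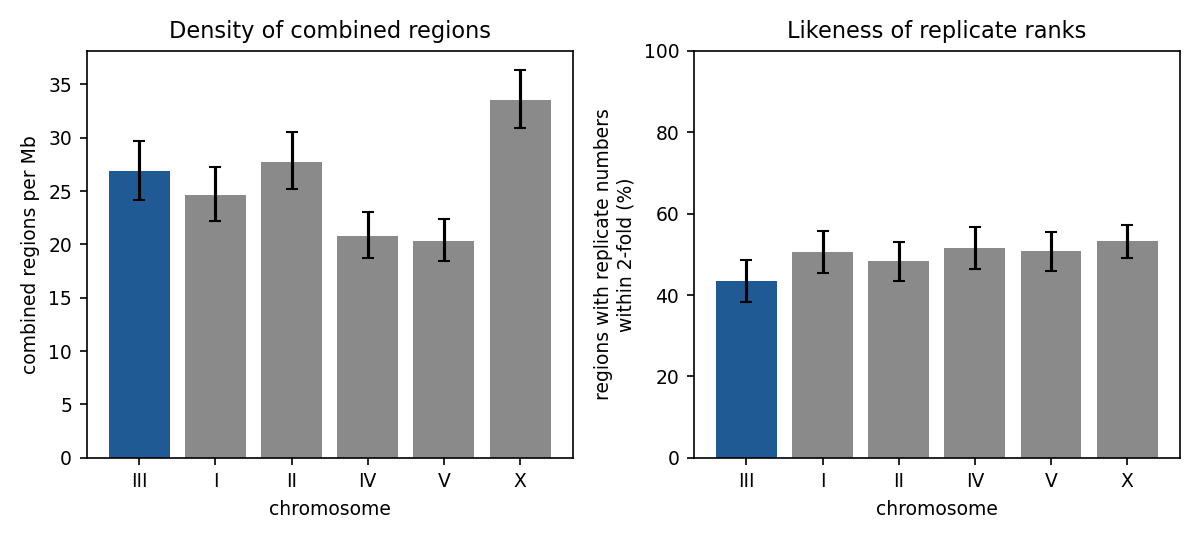
Left, combined regions per Mb on III (blue) and each other chromosome (grey), with exact 95% Poisson intervals. Right, the percentage of combined regions whose numbers in the replicates lay within 2-fold of each other, with 95% Wilson intervals. III had 26.8 regions per Mb, between V at 20.3 and X at 33.5, and the lowest share within 2-fold, 43.4%.

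Along III the members were concentrated in the centre. The central 60% of the chromosome held 275 of the 370, or 33.3 per Mb, and the outer 20% at either end together held 95, or 17.2 per Mb. The centre was 1.93 times as dense (1.52 to 2.46; exact binomial p = 8.08e-09). The best regions of replicate 1 alone gave 1.75 and those of replicate 2 alone gave 2.35, and the combined list gave 1.51 with only the outer 15% at either end called arm. The other autosomes had a ratio of 2.05 (1.83 to 2.31), and the balance of centre and arms on III did not differ detectably from theirs (odds ratio 0.939, 0.720 to 1.23; Fisher's exact p = 0.640, adjusted p = 1). The left arm of III held 40 members and the right arm 55 (ratio of right to left 1.38, 0.898 to 2.12; exact binomial p = 0.151).

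In the combined list the right arm was made of a sparse and a dense stretch. Each chromosome was divided into 10 equal parts. Part 9 of III held 17 members, or 12.3 per Mb, the fewest of any part, and 0 of them were among the best 509. Part 10, at the very end, held 38 members, or 27.6 per Mb, and 9 of these were among the best 509. The end of III was thus as dense as part 3, which also had 38. The other autosomes had 13.2 per Mb in part 9 and 13.7 in part 10. Among the best 509 were 14 of their 91 regions in part 9 and 17 of their 94 in part 10. The background over all regions was 20.0%, and these shares were not tested. The ratio of the density of III to that of the other autosomes was 0.932 (0.520 to 1.57) in part 9 and 2.02 (1.35 to 2.97) in part 10. Of the 10 parts, which were compared after the data had been seen, part 10 alone passed the test (exact binomial p = 0.000605, adjusted p = 0.00605 over 10 parts).

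The dense end was seen among the best regions of each replicate. Among the best 2548 nuclear regions, part 10 of III exceeded that of the other autosomes 2.25-fold (1.53 to 3.28) in replicate 1 and 1.99-fold (1.32 to 2.97) in replicate 2 (exact binomial, adjusted p = 0.000393 and 0.00766). The combined list was made from the replicates. Of these best regions, 84.7% in replicate 1 and 73.0% in replicate 2 overlapped a combined region, so the 2 tests are no independent evidence of a dense end. In the whole lists, which are mostly low-ranked regions, the excess in part 10 was 1.50-fold (1.35 to 1.66) and 1.31-fold (1.17 to 1.45), and it was not alone. Parts 2, 3, 8 and 9 of III also exceeded the other autosomes in both whole lists, with ratios of 1.18, 1.35, 1.35 and 1.31 in replicate 1 and of 1.20, 1.36, 1.34 and 1.20 in replicate 2 (exact binomial, adjusted p at most 0.0101 over 10 parts of a list). Part 9 was the sparsest part of III in the combined list, where it did not differ detectably from the other autosomes (ratio 0.932). In the whole lists it held 290.2 regions per Mb against 222.3 in replicate 1 and 263.4 against 219.5 in replicate 2. The ends of the autosomes differed among themselves: III had 27.6 regions per Mb in part 10, II had 22.3, I had 16.6, IV had 9.15 and V had 9.08. The pooled value for the other autosomes thus averages unlike chromosomes, and X had 32.2.

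**Figure D2:**
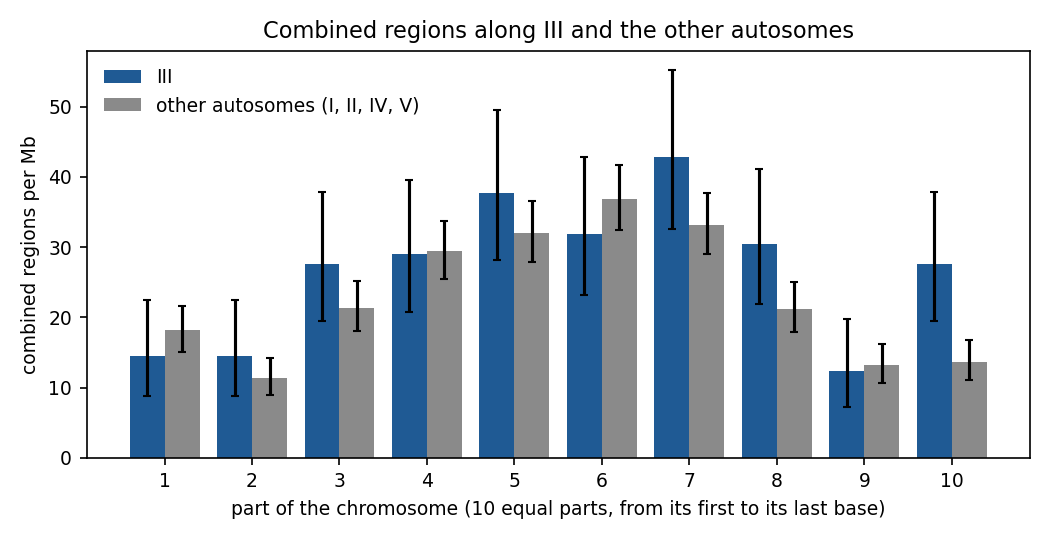
Combined regions per Mb in each of 10 equal parts of III (blue) and in the same part of the other autosomes pooled (grey), with exact 95% Poisson intervals. On III the density was highest in part 7, at 42.8 per Mb, and stood at 12.3 in part 9 and 27.6 in part 10.

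The densest stretch on III lay in part 7, where 59 members stood. Windows of 300 kb were compared after the data had been seen. The fullest on III ran from 8567056 to 8865600 and held 26 members at 18 separate places, of which 10 were among the best 509 and 3 in the best 100. The fullest window of the same size held 26 regions on X, 23 on V, 22 on IV, 21 on II and 20 on I. Within 100 kb, 13 members lay between 8567056 and 8658640. That count was lower than the 18 of X, 16 of V and 15 of II and IV, and above the 11 of I. III thus shared the highest count at 300 kb and had the lowest but one at 100 kb.

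III also had wide stretches without a member, as did every other chromosome, and its longest was in its middle. It ran from 6608496 to 6969484, or 361.0 kb, whereas the median distance between neighbouring midpoints on III was 17.7 kb. Replicate 1 had 86 regions in this stretch and replicate 2 had 85, but the best numbers among them were 3327 and 1862. The stretch was picked because it holds no member, so the absence of these regions from the combined list is no separate result. The longest stretch of each other chromosome also held regions of both replicates. The next longest stretches, 356.3 kb from 2172463 to 2528761 and 342.7 kb from 7053 to 349754, were both in the left arm. On the other chromosomes the longest stretch measured 766.3 kb on V, 535.5 kb on II, 431.5 kb on IV, 353.1 kb on X and 310.1 kb on I. The longest on III lay within this range.

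The share of members close to another member was lower on III than on any other chromosome of the combined list. A neighbouring midpoint within 2 kb was found for 79 of the 370 (21.4%, Wilson interval 17.5 to 25.8), against 603 of 2178 on the other chromosomes (27.7%, 25.8 to 29.6), where the values ran from 26.6% on X to 30.0% on II. The background over all regions was 26.8%. III was not the lowest within 5 kb, where it had 43.8% and I had 42.9%. Nor was it in the best regions of replicate 1 alone, with 25.5% on III and 25.3% on X, or of replicate 2 alone, with 24.0% on both III and I. With neighbours joined, the members made 326 places, of which 291 were single regions, 28 were pairs and 7 held 3 or 4. Places of 2 or more made up 35 of 326 on III (10.7%), against 259 of 1834 on the other chromosomes (14.1%). This difference did not pass the test (odds ratio 0.731, 0.488 to 1.07; Fisher's exact p = 0.114, adjusted p = 0.114 over 2 comparisons added after the data were seen). In the better 1274 regions of the list the odds ratio was 0.834 (Fisher's exact p = 0.670).

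Grouped members tended to rank better than single ones. Of the 79 members with a near neighbour, 27 (34.2%, Wilson interval 24.7 to 45.2) were among the best 509, against 47 of 291 single members (16.2%, 12.4 to 20.8). The median number was 818 for grouped members and 1360 for single ones. These values describe III and were not tested, since neighbours share their surroundings. Among the 28 pairs, 17 had at least 1 region among the best 509 and 3 had both there. The midpoints of a pair lay from 190 to 1999 bp apart, with a median of 1036 bp.

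The groups of 3 or more were of unlike make-up. The group at 1923563 to 1926671 was the only one of the 7 whose regions were all among the best 509. Its regions were numbers 79, 96 and 200, and they stood at 83, 68 and 150 in replicate 1 and at 138, 181 and 637 in replicate 2. The group at 6132105 to 6135502 had 1 strong region at its edge, number 19, followed by numbers 1365 and 2156. Likewise number 115 led the group at 5552360 to 5555262, with 824 and 1615 beside it. Number 184 led the group at 7551044 to 7554986, with 1886 and 555 beside it.

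Both groups of 4 lay in the centre. At 8794676 to 8797507 stood numbers 839, 237, 1648 and 658, in the fullest 300 kb window described above. Numbers 237 and 1648 overlapped and matched the same region of each replicate, so they are not separate evidence of binding. At 6360025 to 6364672 stood numbers 818, 1738, 1006 and 584, spaced by 771 to 1763 bp, and 0 of these were among the best 509. The last group, at 12425828 to 12427921 in the dense end of the chromosome, held numbers 1834, 560 and 1513. Here numbers 560 and 1513 overlapped and shared their replicate 1 region. On III as a whole 7 members overlapped the member before them, and 14 members shared a replicate 1 region with another member and 12 a replicate 2 region. Matching counts on the other chromosomes are not given here, so these are not read as traits of III.

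**Figure D3:**
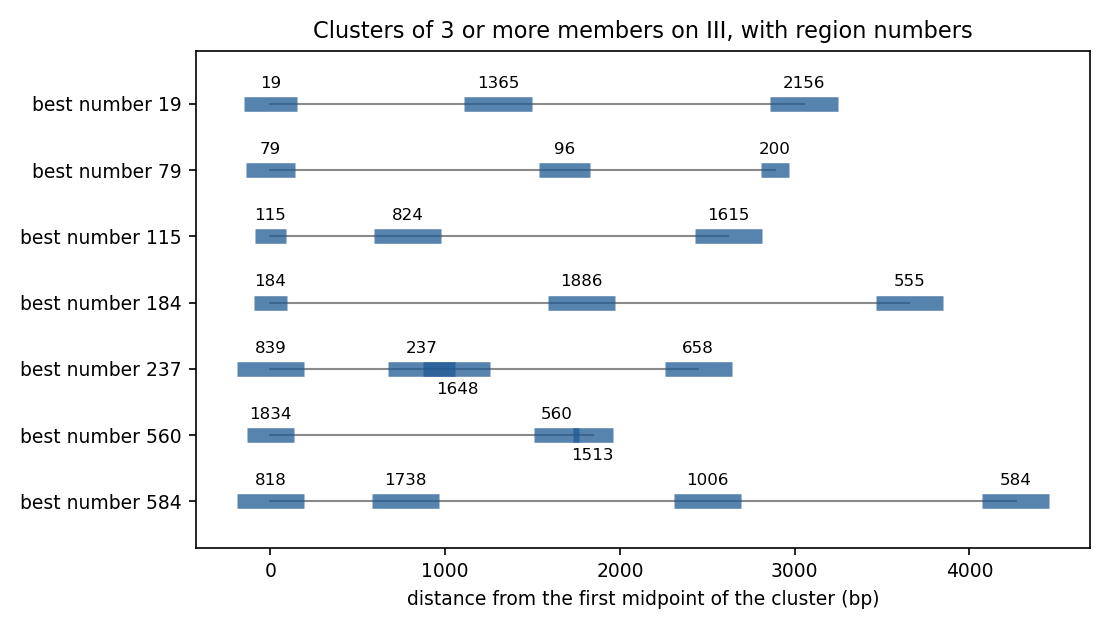
The 7 groups of 3 or more members on III, each drawn from its first midpoint, with distance in bp on the x axis. Blue bars are regions drawn to their width and the figures beside them are their numbers in the combined list. Only the group led by number 79 has all its regions among the best 509, and 2 groups contain overlapping regions.

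Almost all members had a region in both replicates. This held for 362 of the 370 (97.8%, Wilson interval 95.8 to 98.9), against 2123 of 2178 on the other chromosomes (97.5%, 96.7 to 98.1), and the background was 97.5%. The odds ratio was 1.17 (0.549 to 2.87; Fisher's exact p = 0.856, adjusted p = 1). The combined list was made from the replicates, so this share is no independent evidence of binding. With a reciprocal overlap of 50%, the share on III was 84.1%.

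The other 8 members each matched a region of replicate 1 and none of replicate 2. The best of them was number 1498, at 6420962 to 6421345, which was 739 in replicate 1. Number 1504 at 502534 to 502917 stood at 998 in replicate 1, and number 1649 at 7720873 to 7721256 stood at 956. Number 1729 at 4193602 to 4193985 was 815 in replicate 1 and number 2033 at 9053746 to 9054129 was 997. The last 3 were numbers 2125 (3980280 to 3980663), 2385 (10016616 to 10016999) and 2460 (2169483 to 2169866). All 8 were of the same width and had scores at the cap of replicate 1, and all lay in bins 3 to 5 of the combined list.

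Numbers within 2-fold of each other in the replicates were less frequent on III than elsewhere, a comparison made after the data had been seen, whereas the order of the numbers was not less alike by rank correlation. The 2 replicate numbers lay within 2-fold of each other for 157 of 362 members (43.4%, Wilson interval 38.4 to 48.5), against 1084 of 2123 regions on the other chromosomes (51.1%). The other chromosomes ran from 48.3% on II to 53.3% on X. The odds ratio of III over the rest was 0.734 (0.582 to 0.924; Fisher's exact p = 0.00748, adjusted p = 0.0150 over 2 added comparisons). III was picked as 1 of 6 chromosomes, which this adjustment does not cover. The ratio of the larger to the smaller number had a median of 2.17 on III and 1.97 on the other chromosomes. Replicate 1 gave the better number for 204 members of III (56.4%) and replicate 2 for 157, with 1 tie. On the other chromosomes replicate 1 gave the better number for 53.9%, a difference that was not tested.

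The medians of the numbers lay apart between the replicates beyond the best 509. In bin 1, members on III had a median number of 275.5 in replicate 1 and 263.5 in replicate 2. In bin 5 the medians were 2308 in replicate 1 and 3510 in replicate 2, against 2407 and 3007 on the other chromosomes. Of the 370 members, 313 (84.6%) matched one of the best 2548 of replicate 1 and 255 (68.9%) one of the best 2548 of replicate 2, while 11 matched neither. The same shares of members on the other chromosomes are not given here, so whether these are particular to III is unknown. Across the 362 members on III the numbers of the replicates had a Spearman's rho of 0.446, and on the other chromosomes it was 0.453 over 2123 regions. The rho was 0.405 on I, 0.453 on II, 0.489 on IV, 0.385 on V and 0.513 on X, so III stood among the other chromosomes. These are correlations across regions within the same samples.

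**Figure D4:**
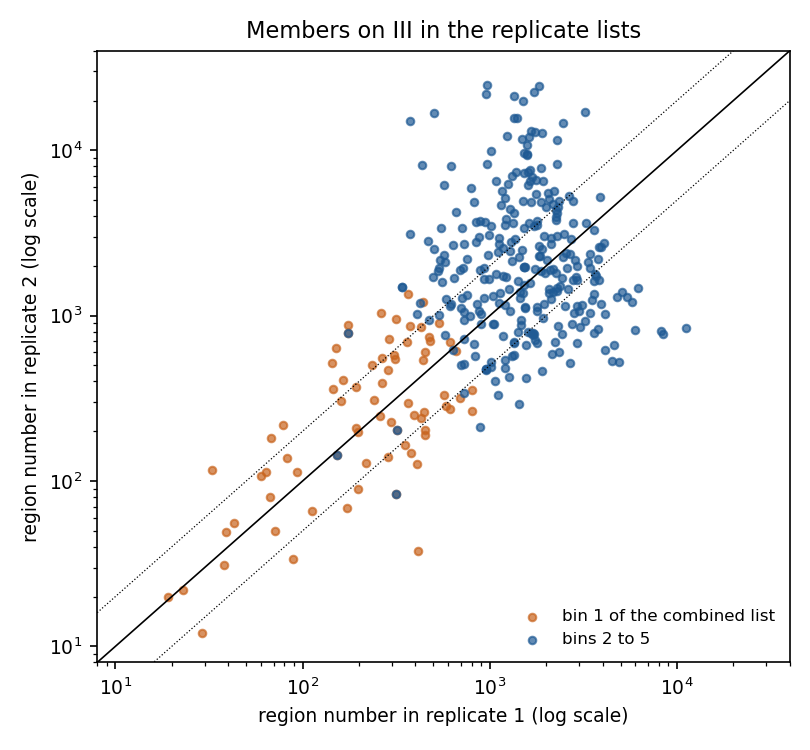
The number of each member on III in replicate 1 (x axis) and replicate 2 (y axis), both on log scales, for the 362 members found in both. Orange points are the best 509 of the combined list (bin 1) and blue points the rest. The solid line marks equal numbers and the dotted lines a 2-fold difference, within which 157 members lie. Points far above the lines have low ranks in replicate 2 only.

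Position and width went with rank among the members. The midpoints of the replicate regions lay a median of 20.5 bp apart in bin 1, the best, and 34, 41, 45 and 60 bp apart in bins 2 to 5. Over all members 224 of 362 (61.9%) had midpoints within 50 bp, and 11 had them more than 200 bp apart. Matching counts on the other chromosomes are not given here, but the median over all bins was 38 bp both there and on III. On the other chromosomes the medians were 23.5 bp in bin 1 and 62 bp in bin 5. Scores at the cap of both replicates were found for all 74 members of bin 1 and for 5 of the 68 in bin 5. The shares on the other chromosomes were 99.5% in bin 1 and 9.68% in bin 5. The combined list was made from the replicates, so its ranks and the capped scores are not independent. In all, 214 of the 370 (57.8%) had both scores at the cap, against 61.5% on the other chromosomes, and the background was 60.9%.

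Most members had the set width of the combined list, 384 bp. This was so for 305 of the 370 (82.4%), against 83.7% on the other chromosomes and a background of 83.5%. Of the 64 narrower members, 53 were among the best 509, where they made up 71.6% of the 74. This was not particular to III. The set width was found for 27.0% of bin 1 on III and for 28.3% of bin 1 on the other chromosomes. The narrowest measured 96 bp, and there were 4 of them, at 10133191 to 10133286, 2528762 to 2528857, 8741504 to 8741599 and 5875764 to 5875859. They were numbers 380, 401, 448 and 546, so the narrowest regions were not the very best ones. The widest member, 386 bp at 10907686 to 10908071, was number 507 and the only one above the set width.

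**Figure D5:**
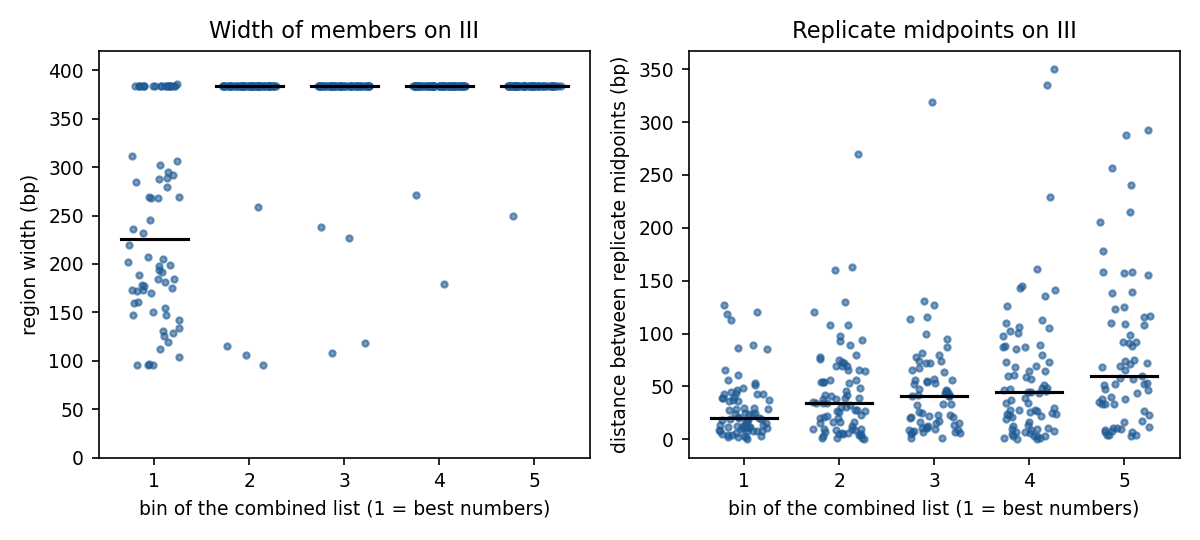
Width of each member on III in bp (left) and the distance between its replicate midpoints in bp (right), by bin of the combined list, with the median as a black line. Widths vary mainly in bin 1, whose median is 226 bp, and the median distance goes from 20.5 bp in bin 1 to 60 bp in bin 5.

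Most regions that the replicates called on III were not members and were not shared. Of the 4285 regions of replicate 1 on III, 1600 (37.3%, Wilson interval 35.9 to 38.8) overlapped a replicate 2 region, and the background over the whole list was 37.3%. Of the 3986 regions of replicate 2, 1600 (40.1%, 38.6 to 41.7) overlapped a replicate 1 region, with a background of 39.7%. With the III regions of each list cut by number into 5 bins, the shares in the best bin were 70.9% for replicate 1 and 70.4% for replicate 2. In the last bin they were 25.6% and 26.4%. On the other chromosomes the best bins had 74.1% and 73.7% and the last bins 22.6% and 26.2%, and these differences were not tested. Regions that were shared but overlapped no member numbered 1200 of 4285 in replicate 1 (28.005%) and 1179 of 3986 in replicate 2 (29.58%). The other chromosomes had similar shares, 27.085% in replicate 1 and 28.60% in replicate 2, and this was not tested.

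The replicates differed in how many of their best regions became members. Among the best 2548 nuclear regions of replicate 1, 373 were on III and 312 of these (83.6%) overlapped a member, and the background was 84.7%. In replicate 2, 371 were on III and 257 (69.3%) overlapped a member, with a background of 73.0%. The best shared region of replicate 2 on III outside the combined list was number 1140, at 5838166 to 5838549, only 73 bp from a member, and its replicate 1 partner was number 10937. The best such region of replicate 1 was number 1555, at 5940449 to 5940824, with number 2892 in replicate 2.

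Regions of 1 replicate without any partner in the other showed the same contrast. The 5 best of replicate 1 on III were numbers 739, 815, 956, 997 and 998, and all 5 overlapped members already named above. The 5 best of replicate 2 overlapped no member. Number 248 of replicate 2, at 4015769 to 4015991, was 223 bp wide, stood 90 bp from the nearest replicate 1 region and lay 3833 bp from the nearest member. The following were number 1083 at 6164446 to 6164829, number 1230 at 3619621 to 3620004, number 1440 at 9970836 to 9971219 and number 1533 at 12845338 to 12845721. In these 10 cases the regions from replicate 1 overlapped members and those from replicate 2 did not. Every member on III overlapped a replicate 1 region, so this split was largely set by the make-up of the list. It is no separate result.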

How the data were processed

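Binding regions of 2 ELT-1 ChIP samples were read from 3 lists as the authors deposited them; the 2 input samples were not analysed here. Per the file headers, positions are those of WormBase WS220. The files' source field names SPP, a caller of ChIP-seq regions, and the irreproducible discovery rate, which rates regions by how alike replicates rank them. Not given in the sources used here are versions, thresholds, aligner, use of input and the rule behind the combined list. The deposited score of each region was set by the authors, its meaning is not stated, and it is capped in the replicate lists. Ranks are the numbers in the region names, whose meaning is not stated either.

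Regions overlapped if they shared 1 bp, and of several partners the best-numbered was taken. The length of III was taken as 13783684, its largest coordinate in the lists, and the others likewise. Arms were the outer 20% at either end. Density ratios were tested with exact binomial tests, and shares with Fisher's exact test, two-sided, with exact or Wilson 95% intervals. Benjamini-Hochberg adjustment covered the 5 planned tests against other chromosomes. Python 3.11.15 was used with scipy 1.17.1, numpy 2.4.6, matplotlib 3.10.9 and pandas 2.3.3, and the functions were tested on simulated data. Members and lists were chosen with earlier results of these data known. Named regions are the 15 best members, groups of 3 or more, members found in 1 replicate only, the 5 best unmatched regions of each replicate, the widest and narrowest members and the longest stretch without one. The fullest windows, the shared regions outside the combined list and the next longest stretches were picked after their values were seen.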

Additional observations from a re-analysis of the deposited data

How the results depend on the processing

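The density of III over the other autosomes kept its direction under each alternative, at 1.22 with neighbours joined, 1.15 and 1.14 in the whole lists of replicates 1 and 2, and 1.16 to 1.17 with 1 replicate left out. It no longer passed the exact binomial test in the better 1274 combined regions (1.17, p = 0.0640). Nor did it pass without the last of 10 parts of each autosome (1.11, exact binomial p = 0.0841), left out after its excess was seen. Both alternatives counted fewer regions, and without the last part the ratio itself was lower than the 1.16 of the full list. The ratio to II, never past the test, was 1.01 in the better regions and 1.03 with neighbours joined, against 0.967. The odds of centre against arms relative to the other autosomes ran from 0.811 to 1.13 with 1 replicate left out and were 0.777 (0.586 to 1.04, Fisher's exact p = 0.0768) with the outer 15% called arm, and passed the test in none of the alternatives. Odds of III among the best 509 were 0.940 to 1.03 with 1 replicate left out, and 0.987 among the best 1274. The share of members in both replicates was 84.1% with a reciprocal overlap of 50%, where its odds ratio to the other chromosomes was 0.849, 100% in the better regions, and 97.8% to 100% with 1 replicate required. The share with a near neighbour was 9.46% within 1 kb, 43.8% within 5 kb, 16.3% in the better regions and 24.0% to 25.5% with 1 replicate left out. Partners of replicate regions on III fell to 26.2% and 28.1% with a reciprocal overlap of 50% and to 27.3% and 29.5% with midpoints within 200 bp. The cause of these changes was not tested. No paired analysis was possible because the input samples have no list of their own here. Joined neighbours aside, regions were counted singly. With read depth unknown, a region missing from a list cannot be called unbound.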

Other observations

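The following members on III were picked after their values were seen, and no explanation was tested. The replicates disagreed most on number 808, at 349755 to 350138, which was 373 in replicate 1 and 15093 in replicate 2. It stands at the right edge of the empty stretch at the left end of III. Next was number 1068, at 13462970 to 13463087, with number 501 in replicate 1 and 16808 in replicate 2. In all 17 members had numbers more than 10-fold apart. The midpoints of the replicates were farthest apart at number 1714, at 9619130 to 9619513, where they lay 350 bp apart. There the replicate 1 region spanned 9619457 to 9619832 and the replicate 2 region 9619103 to 9619486, so they shared only a short stretch.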
